A study of Mus musculus with 6 samples.

Results

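The genes described are those of the keratin-associated proteins (KAPs), the matrix proteins that surround keratin filaments in the hair shaft. They were taken as every row of the deposited table of gene values whose symbol begins with Krtap and a digit, which gave 56 of 35434 genes. The symbols fall into 27 numbered subfamilies, 16 of them with 1 gene. The samples were skin lesions of mice in a psoriasis-like model given control regulatory T cells (Ctrl-Treg, 3 libraries) or regulatory T cells treated with lenvatinib (Lenv-Treg, 3 libraries), where lenvatinib is an inhibitor of receptor tyrosine kinases. All 6 libraries share the disease and the transfer of cells, and no library without transferred cells or without disease was analysed here. The labels do not state strain, age, how the disease was induced or whether each library is a separate mouse. The p-values therefore reflect only differences among these libraries, some of which may be technical.

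The hair shaft is built by keratinocytes of the follicle's matrix, which differentiate into the medulla, cortex and cuticle of the hair while the follicle is growing. In the cortex, hair keratins assemble into filaments, and KAPs, made late in differentiation from small genes with a single exon, are crosslinked to them through disulphide bonds. KAPs are grouped by composition into high-sulfur, ultrahigh-sulfur and high-glycine-tyrosine proteins. By their subfamily number, 15 of the 56 genes encode high-sulfur, 20 ultrahigh-sulfur and 15 high-glycine-tyrosine proteins, and 6 were not classed.

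For 4 of the genes, the 250 bases before each start site are given here. They are Krtap8-1, the highest by level (high-glycine-tyrosine), Krtap3-1 and Krtap11-1 (high-sulfur), and Krtap17-1 (ultrahigh-sulfur), which kept the most reads in Lenv-Treg. The sequences are from RefSeq on build GRCm38.p6, each on the minus strand and written 5′ to 3′ along the gene: chr16:89487953-89488202 for Krtap8-1, chr11:99566631-99566880 for Krtap3-1, chr16:89571184-89571433 for Krtap11-1 and chr11:99993995-99994244 for Krtap17-1. Capitals mark TATAAA, the core of the TATA box, and CTTTGA or CTTTGT on either strand, the core recognised by LEF1 and TCF factors.
Krtap8-1: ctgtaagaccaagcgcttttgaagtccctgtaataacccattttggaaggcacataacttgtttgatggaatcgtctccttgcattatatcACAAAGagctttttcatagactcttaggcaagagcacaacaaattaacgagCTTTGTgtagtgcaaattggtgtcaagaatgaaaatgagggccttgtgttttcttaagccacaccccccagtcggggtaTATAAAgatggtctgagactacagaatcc
Krtap3-1: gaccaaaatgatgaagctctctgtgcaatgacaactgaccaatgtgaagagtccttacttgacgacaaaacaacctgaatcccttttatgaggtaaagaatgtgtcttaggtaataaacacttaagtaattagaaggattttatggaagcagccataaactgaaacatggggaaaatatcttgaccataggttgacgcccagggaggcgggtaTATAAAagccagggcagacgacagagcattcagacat
Krtap11-1: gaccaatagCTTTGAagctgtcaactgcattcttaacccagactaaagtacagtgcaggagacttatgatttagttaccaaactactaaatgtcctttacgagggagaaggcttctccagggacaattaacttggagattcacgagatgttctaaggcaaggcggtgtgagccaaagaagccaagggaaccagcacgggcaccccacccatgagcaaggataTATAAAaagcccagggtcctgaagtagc
Krtap17-1: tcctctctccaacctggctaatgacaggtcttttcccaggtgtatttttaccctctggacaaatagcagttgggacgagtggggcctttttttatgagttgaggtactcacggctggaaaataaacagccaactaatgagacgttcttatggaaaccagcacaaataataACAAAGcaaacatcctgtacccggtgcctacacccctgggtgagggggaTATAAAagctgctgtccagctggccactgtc

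In each of these 4 sequences TATAAA lay on the gene's strand, its first base 29, 37, 28 and 31 bases before the start in Krtap8-1, Krtap3-1, Krtap11-1 and Krtap17-1. The promoter table matched 51 members by symbol, and 34 of them (66.7%) held TATAAA on the gene's strand in the last 50 bases before the start, against 2.88% of 27025 promoters. Over the whole 250 bases and both strands, 41 of the 51 (80.4%) held it, against 13.0% of all. CTTTGA or CTTTGT was present on either strand in 24 of the 51 (47.1%), against 27.7% of all. Among the 28 with a promoter that were tested for a difference, 12 held it. Members of a family are related in sequence, so the 51 promoters are not independent. Any part of these motifs in the difference between the groups was not tested. These motifs were chosen after the sequences were seen, no member had matches to both sets of letters that shared a base, and a match is a description of the letters only.

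KAP RNA made up 0.0152% to 0.0527% of assigned reads in the 3 Ctrl-Treg libraries and was nearly absent from all 3 Lenv-Treg libraries. Values are FPKM, fragments scaled to gene length and to the library's assigned fragments, and the reads behind them could be recovered from their steps. Summed over the 56 genes, FPKM was 189, 415 and 662 in Ctrl-Treg replicates 1, 2 and 3 and 0.810, 2.43 and 0.157 in Lenv-Treg replicates 1, 2 and 3. The means were 422 ± 236 and 1.13 ± 1.17 (SD, n = 3). The same sums in reads were 6100, 12644 and 20388 in Ctrl-Treg, against 26, 84 and 5 in Lenv-Treg, from 38704536 to 40248462 assigned reads per library. Relative to depth this was 345-fold more in Ctrl-Treg (95% exact interval 288 to 418, counting error only). Lenv-Treg replicate 2 held 73.0% of the group's KAP reads, and without it the ratio was 850. In bulk tissue, fewer hair-forming cells and less KAP RNA per cell cannot be told apart.

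**Figure D1:**
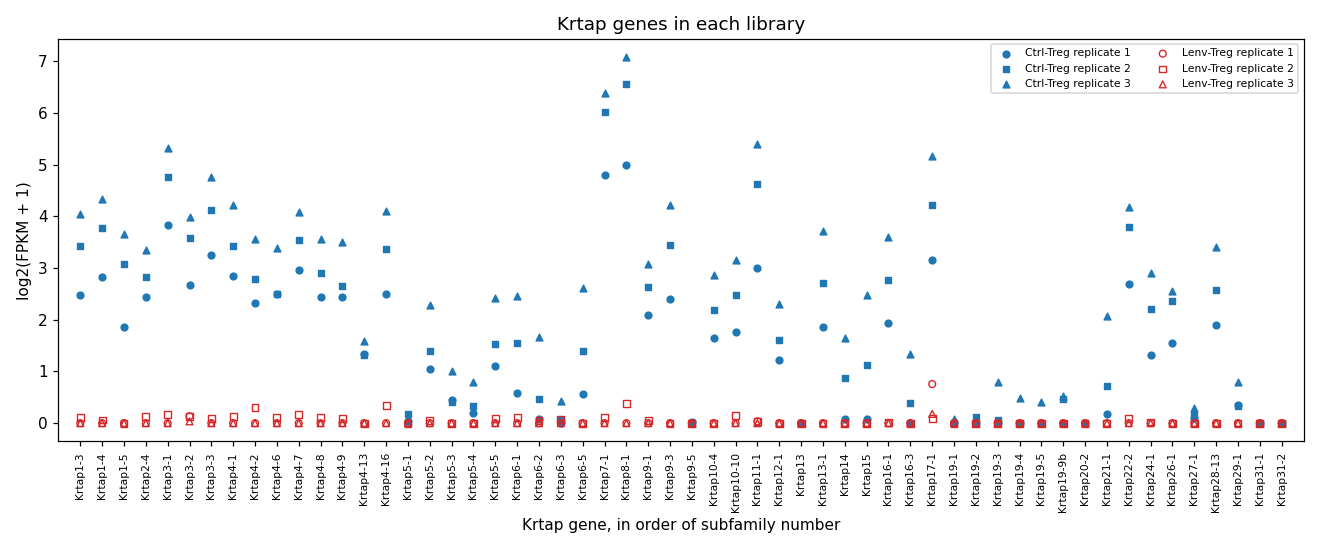
Each of the 56 Krtap genes is on the x axis in order of subfamily number, with log2(FPKM + 1) in each of the 6 libraries on the y axis. Filled blue symbols (Ctrl-Treg) rise to 134 FPKM for Krtap8-1, while open red symbols (Lenv-Treg) stay near 0, the highest being Krtap17-1 in replicate 1 at 0.689 FPKM.

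Of the 56 genes, 52 had at least 1 read in Ctrl-Treg and 27 had at least 1 in Lenv-Treg. All 27 had a read in Lenv-Treg replicate 2, while replicate 1 had reads of 3 members and replicate 3 of 2. The other 4 genes, Krtap13, Krtap20-2, Krtap31-1 and Krtap31-2, were listed at 0 in every library. Every Lenv-Treg library lay below every Ctrl-Treg library for 43 members, and the groups overlapped or shared a 0 for 9. Among all genes with any value above 0, 29.7% lay lower in this way, and 41.0% of the genes tested below. Over the 56 members, reads in Lenv-Treg replicate 2 followed those in Ctrl-Treg (Spearman's rho 0.70 across genes, a description, since genes are not independent replicates).

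Of the 56, 33 genes in 19 subfamilies reached 0.5 FPKM in 3 or more of the 6 libraries and were tested by limma on log2(FPKM + 1). All 33 passed the threshold of 0.05 and fell in Lenv-Treg, and none rose. Among all 13945 genes tested, 30.8% passed lower and 11.0% higher. Each of the 33 reached 0.5 FPKM in all 3 Ctrl-Treg libraries, and only Krtap17-1 reached it in a Lenv-Treg library. A gene that enters the test through 1 group in this way must differ between the groups, so the count describes the members and supports nothing further. Log2 differences, Lenv-Treg minus Ctrl-Treg, ran from -6.08 to -1.42 with a median of -2.83, beside a median of -0.17 over all tested genes. Adjusted p over the 33 genes was 6.73e-05 to 0.0223. At the edge of the filter, the third highest value was 0.502 FPKM for Krtap6-1, which was tested, and 0.488 FPKM for Krtap6-5, which was not.

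The high-glycine-tyrosine genes ranged from the most abundant members to some with a few reads. Krtap8-1, the most abundant member, was at 30.8, 93.0 and 134 FPKM in Ctrl-Treg, against 0, 0.300 and 0 in Lenv-Treg. Its log2 difference was -6.08 (SE 0.47, limma adjusted p = 0.00014), from 5825 reads in Ctrl-Treg against 7 in Lenv-Treg. Krtap7-1, the next in abundance, was at 27.0, 63.4 and 82.9 FPKM in Ctrl-Treg, against 0, 0.0800 and 0 in Lenv-Treg (-5.70 on the log2 scale, SE 0.36, limma adjusted p = 6.73e-05). In both genes all Lenv-Treg reads came from replicate 2, and the lowest Ctrl-Treg library stood far above the highest Lenv-Treg library. Together they made up 30.5% to 37.7% of the summed KAP FPKM in the Ctrl-Treg libraries. Krtap22-2 was at 5.49, 12.8 and 17.2 FPKM in Ctrl-Treg and had 1 read in Lenv-Treg, in replicate 2 (-3.53 on the log2 scale, SE 0.34, limma adjusted p = 0.000289).

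Subfamily 6, also of the high-glycine-tyrosine class, was low and uneven among the controls. Krtap6-1 was at 0.502, 1.93 and 4.52 FPKM in Ctrl-Treg, against 0, 0.0837 and 0 in Lenv-Treg. It fell by 1.50 on the log2 scale (SE 0.41, limma adjusted p = 0.0223), the weakest call among the members, and the groups did not overlap. The call ended without Ctrl-Treg replicate 2 (adjusted p = 0.0518), without Lenv-Treg replicate 1, 2 or 3 (0.0575, 0.0585 and 0.0649), after quantile normalization (0.0663) and with no filter on low values (0.0688). Krtap6-5, just outside the filter, was at 0.488, 1.63 and 5.16 FPKM in Ctrl-Treg, against no read in Lenv-Treg (exact permutation p = 0.1, two-sided, the smallest that 3 against 3 samples allow). Krtap21-1, at 0.133, 0.649 and 3.18 FPKM in Ctrl-Treg, had no read in Lenv-Treg either (exact permutation p = 0.1). Ctrl-Treg replicate 3 was the highest library for all 3 of these genes and replicate 1 the lowest of the controls.

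The 6 genes of subfamily 19 had 45 reads in all, and none of the 6 was tested. The reads were 0, 10 and 35 in Ctrl-Treg replicates 1, 2 and 3, and 0 in each Lenv-Treg library. A count of 0 in Lenv-Treg allows up to 3 reads over the group, so with reads pooled over each group the level was at least 15.2-fold lower. Neither a single gene of the subfamily nor its sum separated the groups, since Ctrl-Treg replicate 1 was at 0 as well.

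Krtap3-1 and Krtap11-1 were the high-sulfur genes with the highest mean FPKM in the controls. Krtap3-1 was at 13.2, 26.2 and 39.0 FPKM in Ctrl-Treg, against 0, 0.123 and 0 in Lenv-Treg (-4.58 on the log2 scale, SE 0.33, limma adjusted p = 0.000112). Krtap11-1, a subfamily of its own, was at 7.05, 23.6 and 41.2 FPKM in Ctrl-Treg, against 0.0248, 0.0246 and 0 in Lenv-Treg (-4.32 on the log2 scale, SE 0.52, limma adjusted p = 0.000789). These Lenv-Treg values stand for 1 read each in replicates 1 and 2. All 3 members of subfamily 3 fell (-4.58 to -3.31), and Krtap3-2 was, with Krtap17-1, 1 of 2 members with reads in all 3 Lenv-Treg libraries, 4, 4 and 1.

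Subfamilies 1 and 2 lie on the same chromosome as subfamily 3. Krtap1-4 was at 6.07, 12.8 and 19.2 FPKM in Ctrl-Treg, against 0, 0.0440 and 0 in Lenv-Treg (log2 difference -3.63, SE 0.33). Krtap2-4 was at 4.43, 6.06 and 9.12 FPKM in Ctrl-Treg, against 0, 0.0898 and 0 in Lenv-Treg (log2 difference -2.83, SE 0.21). All 3 tested members of subfamily 1 fell, with log2 differences of -3.63 to -2.86. Both named genes again had their Lenv-Treg reads in replicate 2 only.

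Subfamilies 13, 24 and 26 had 1 tested high-sulfur gene each. Krtap13-1 was at 2.65, 5.52 and 12.2 FPKM in Ctrl-Treg, against no read in Lenv-Treg (log2 difference -2.76, SE 0.40). Krtap26-1 was at 1.94, 4.12 and 4.91 FPKM in Ctrl-Treg, against no read in Lenv-Treg (log2 difference -2.16, SE 0.24). Krtap24-1, at 1.49, 3.62 and 6.53 FPKM in Ctrl-Treg, had 1 read in Lenv-Treg, in replicate 2 (log2 difference -2.14, SE 0.35). With no read in Lenv-Treg, the level was at least 202-fold lower for Krtap13-1 and at least 141-fold lower for Krtap26-1, taking 3 reads in the whole group as the floor. Krtap15 lay outside the filter because Ctrl-Treg replicate 1 had only 2 reads: it was at 0.0594, 1.19 and 4.57 FPKM in Ctrl-Treg, against no read in Lenv-Treg (exact permutation p = 0.1).

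Of the ultrahigh-sulfur genes, which include proteins of the hair cuticle, subfamily 4 is the largest, with 8 members. All 8 were tested and fell (median log2 difference -2.88). Krtap4-1 was at 6.22, 9.80 and 17.5 FPKM in Ctrl-Treg, against 0, 0.0983 and 0 in Lenv-Treg (-3.45 on the log2 scale, SE 0.30, limma adjusted p = 0.00021). Krtap4-13 had the smallest difference among the 33 tested members, at 1.52, 1.50 and 2.02 FPKM in Ctrl-Treg, against no read in Lenv-Treg (-1.42 on the log2 scale, SE 0.10, limma adjusted p = 0.000105). Its controls were the closest together of the named members, relative to their mean. Reads of Krtap4-13 are uncertain, since 62.8% of its windows of 100 bases also occur in the transcripts of other genes, chiefly Gm11554.

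Subfamilies 9, 10, 12 and 5 had fewer reads. Krtap9-3 was at 4.26, 9.96 and 17.5 FPKM in Ctrl-Treg, against no read in Lenv-Treg, at least 318-fold lower (log2 difference -3.35, SE 0.39). Krtap10-10 was at 2.38, 4.58 and 7.90 FPKM in Ctrl-Treg, against 0, 0.114 and 0 in Lenv-Treg (log2 difference -2.41, SE 0.31). Krtap12-1, at 1.33, 2.05 and 3.93 FPKM in Ctrl-Treg, had no read in Lenv-Treg (log2 difference -1.71, SE 0.24). In subfamily 5 only 2 of 5 members were tested. Krtap5-5 was at 1.16, 1.89 and 4.35 FPKM in Ctrl-Treg and had 3 reads in Lenv-Treg (log2 difference -1.66, SE 0.29). Krtap5-2 was at 1.08, 1.65 and 3.87 FPKM in Ctrl-Treg and had 2 reads in Lenv-Treg (log2 difference -1.57, SE 0.28). In each of these genes the groups did not overlap, and any Lenv-Treg reads were in replicate 2.

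Krtap17-1, the ultrahigh-sulfur gene whose promoter is shown above, had a different pattern in Lenv-Treg. It was at 7.85, 17.6 and 34.7 FPKM in Ctrl-Treg, against 0.689, 0.0651 and 0.132 in Lenv-Treg. The Lenv-Treg values stand for 21, 2 and 4 reads, so the highest library here was replicate 1 and not replicate 2. It fell by 3.83 on the log2 scale (SE 0.46, limma adjusted p = 0.000771). In Lenv-Treg replicate 1 it made up 80.8% of all KAP reads and in replicate 3, on 5 KAP reads, 80.0%, against 4.58% in Ctrl-Treg. In Lenv-Treg replicate 2, which held most of the group's KAP reads, its share was 2.38% (2 of 84 reads), below that in each Ctrl-Treg library (3.95% to 5.02%). Its read ratio of Ctrl-Treg to Lenv-Treg was 67.3 (exact interval 46.1 to 102). It was 202 when Lenv-Treg replicate 1 was left out and 42.9 when Ctrl-Treg replicate 3 was. Krtap8-1 had a ratio of 844 (409 to 2101), and of at least 1308 when Lenv-Treg replicate 2, which held all 7 of its Lenv-Treg reads, was left out. None of the windows of 100 bases in the Krtap17-1 transcript occurred in the transcript of another gene. This gene was singled out after its values were seen, and its difference from the other members was not tested.

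Of the members not placed in a class, 2 were tested and fell. Krtap16-1 was at 2.82, 5.82 and 11.1 FPKM in Ctrl-Treg and had 1 read in Lenv-Treg (log2 difference -2.76, SE 0.36). Krtap28-13 was at 2.71, 4.97 and 9.53 FPKM in Ctrl-Treg, against no read in Lenv-Treg (log2 difference -2.62, SE 0.33).

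**Figure D2:**
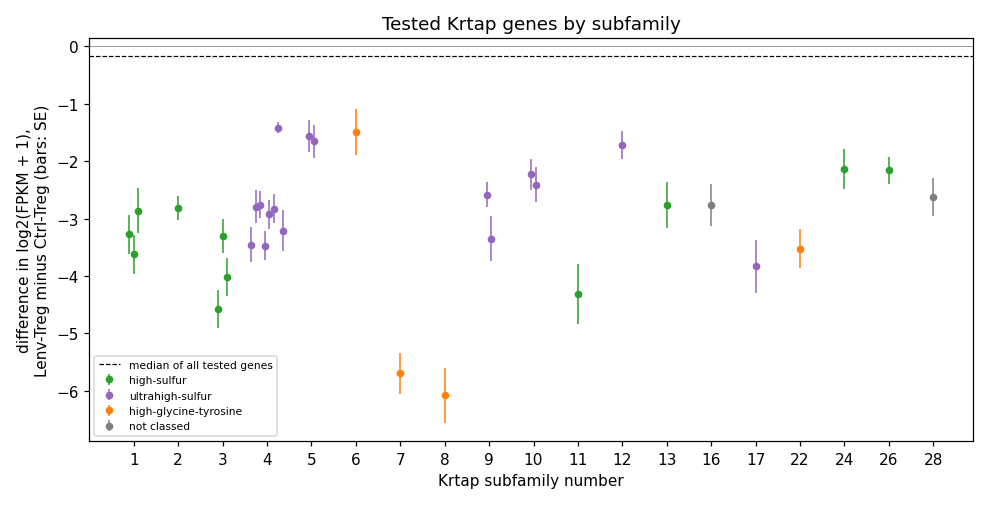
Each point is 1 of the 33 tested Krtap genes, placed by subfamily number (x) and by its difference in log2(FPKM + 1), Lenv-Treg minus Ctrl-Treg (y), with its standard error. All lie below the median of all tested genes (dashed, -0.17), from -1.42 for Krtap4-13 to -6.08 for Krtap8-1.

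The order of subfamilies by log2 difference largely restates their order in the controls, because Lenv-Treg values were close to 0. Single-gene subfamilies 8 and 7 had the largest differences (-6.08 and -5.70), and the tested members of subfamily 5 (median -1.61) and 6 (-1.50) were among the smallest. Read ratios, which do not depend on the added constant, were 189 for subfamily 4 (exact interval 137 to 270) and 331 for subfamily 3 (197 to 606). Without Lenv-Treg replicate 2 the former was at least 1508, with no read left in Lenv-Treg, and the latter 616. By class, the ratio was 807 (481 to 1477) for high-glycine-tyrosine genes, 555 (376 to 858) for high-sulfur genes and 163 (130 to 208) for ultrahigh-sulfur genes. The intervals cover counting error only and rest on 14, 25 and 75 reads in Lenv-Treg. Without Lenv-Treg replicate 2 the first was at least 2503, with no read left in Lenv-Treg, and the others 1537 and 326; without Krtap17-1 the ultrahigh-sulfur ratio was 217. Differences between classes or subfamilies were not tested.

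The control libraries differed from one another far more in KAP genes than in most genes. Ctrl-Treg replicate 3 was the highest control library for 49 members, and 42 members were ordered with replicate 1 lowest, replicate 2 between and replicate 3 highest. Some of the 49 rest on few reads, as Krtap19-1 with 1, and members are not independent of one another. The share of all genes with these orders was not counted. Among the 36 members with at least 10 reads in Ctrl-Treg replicate 1, FPKM in replicate 3 was 1.33 times (Krtap4-13) to 10.6 times (Krtap6-5) that in replicate 1, with a median of 3.10. Over all tested genes the median of this ratio was 1.02, and its 5th and 95th percentiles were 0.640 and 1.50. The median ratio was 2.82 over 17 ultrahigh-sulfur, 3.16 over 11 high-sulfur and 4.35 over 5 high-glycine-tyrosine genes. Krtap15 was 76.9 times higher in replicate 3 than in replicate 1, on 2 and 148 reads. The same ratio was 2.73 for the summed hair shaft keratins, 1.61 for melanocyte and 0.472 for neutrophil genes. Other lists lay above 1, as inner root sheath (2.18) and dermal papilla (1.43), or below it, as skeletal muscle (0.539) and fibroblast (0.770). The neutrophil sum was lowest in replicate 2 (48.3 FPKM) and not in replicate 3 (89.9). The ratios describe 2 libraries, and the part of cell type markers in the spread was not tested.

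**Figure D3:**
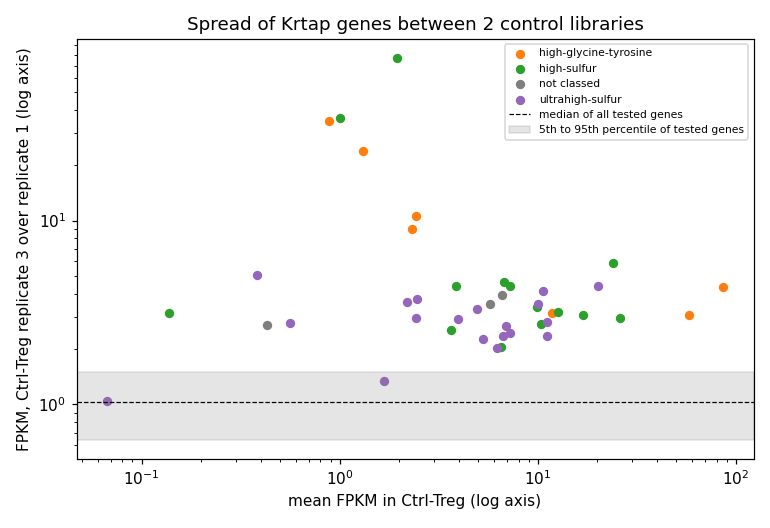
Each point is a Krtap gene with a value in Ctrl-Treg replicates 1 and 3, with mean FPKM in Ctrl-Treg (x, log axis) and the ratio of replicate 3 to replicate 1 (y, log axis), coloured by class. Most points lie above the grey band, which spans the 5th to 95th percentile of all tested genes (0.640 to 1.50), and the highest is Krtap15 at 76.9.

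Other genes of the hair shaft moved with the KAP genes. Of 14 tested hair shaft keratins, the filament proteins to which KAPs bind, 14 fell and 0 rose (median -3.87). This count shares the limit given above for genes that enter the test through the controls. Krt35 was at 73.7, 156 and 179.9 FPKM in Ctrl-Treg, against 0.0581, 0.577 and 0.0586 in Lenv-Treg, and fell by 6.73 on the log2 scale (limma adjusted p = 2.91e-05). Krt85 was at 71.9, 128 and 145 FPKM in Ctrl-Treg, against 0.0386, 0.412 and 0.0487 in Lenv-Treg. Krt83 had a ratio of means of 14.6, at 4.37, 11.5 and 21.8 FPKM in Ctrl-Treg, against 0.441, 1.36 and 0.776 in Lenv-Treg (-2.66 on the log2 scale, SE 0.48, limma adjusted p = 0.00413), and Krt39 and Krt84 lay outside the filter. Krt84 had the opposite order, 0.329, 0.0596 and 0.211 FPKM in Ctrl-Treg, against 0.886, 0.812 and 0.413 in Lenv-Treg. Krt83 and Krt84 were named after their values were seen. Relative to the summed FPKM of the 16 hair shaft keratins, the KAP sum was 0.890, 0.925 and 1.14 in the Ctrl-Treg libraries and 0.475, 0.621 and 0.108 in the Lenv-Treg libraries. Krt83 and Krt84 made up much of the keratin sum in Lenv-Treg. Without them the ratio was 0.910, 0.950 and 1.19 in the Ctrl-Treg libraries and 2.13, 1.39 and 0.603 in the Lenv-Treg libraries. Its direction thus depends on these 2 keratins in Lenv-Treg replicates 1 and 2, while replicate 3 was below every control either way. In Lenv-Treg replicates 1 and 3 the KAP sum rested on 26 and 5 reads, 21 and 4 of them of Krtap17-1.

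Of 8 inner root sheath genes 8 fell (median -6.77), and of 8 partner genes of the hair shaft 8 fell (median -4.59). Among the latter, Prr9, which encodes a proline-rich protein, was at 109, 234 and 374 FPKM in Ctrl-Treg, against 0.656, 2.33 and 1.22 in Lenv-Treg. The limit given above for genes that enter the test through the controls applies to most of these genes. It does not apply to Tchh, Prr9 and Mt4, which reached 0.5 FPKM in all 3 Lenv-Treg libraries as well. Summed inner root sheath FPKM was 1365, 2959 and 2982 in the controls, against 2.04, 18.4 and 3.98 in Lenv-Treg, with replicate 2 again the highest of its group.

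**Figure D4:**
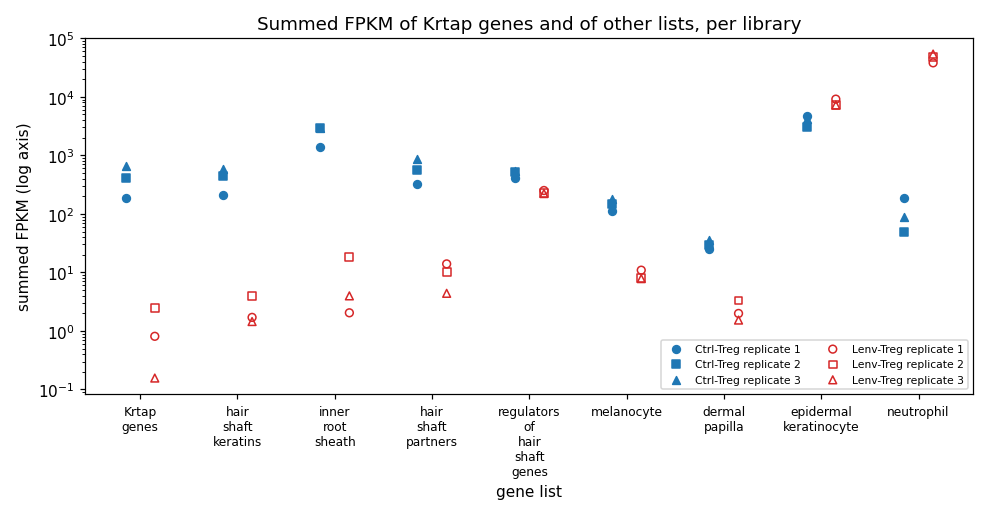
Summed FPKM per library (y, log axis) is shown for the 56 Krtap genes and 8 other gene lists (x), filled blue for Ctrl-Treg and open red for Lenv-Treg. The Krtap sums fall from between 189 and 662 to between 0.157 and 2.43, and the regulators move less. The neutrophil sums, mostly S100a8 and S100a9, move the other way.

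Regulators of hair shaft genes moved in both directions. Of 14 tested, 11 fell and 2 rose (median -1.61). Dlx3, a homeobox factor of the hair matrix, was at 38.6, 63.5 and 61.2 FPKM in Ctrl-Treg, against 4.71, 4.72 and 2.93 in Lenv-Treg (-3.42 on the log2 scale, SE 0.23, limma adjusted p = 7.71e-05). Hoxc13, Lef1, Foxn1 and Prdm1 are named for their known roles and were chosen after their values were seen. Hoxc13, a homeobox factor that controls hair keratin and KAP genes, was at 11.0, 20.2 and 21.3 FPKM in Ctrl-Treg, against 0.319, 0.235 and 0.176 in Lenv-Treg (-3.85 on the log2 scale, SE 0.23, limma adjusted p = 4.91e-05). Lef1, which acts in Wnt signalling in the hair matrix, was at 4.02, 8.32 and 7.97 FPKM in Ctrl-Treg, against 0.116, 0.176 and 0.134 in Lenv-Treg (log2 difference -2.71, SE 0.23). For both genes, as for 39 of the KAP genes, Ctrl-Treg replicate 1 was the lowest control and no Lenv-Treg library reached it. The same held for other genes, among them Msx2, Dlx3 and the melanocyte gene Dct. Every Lenv-Treg library lay below every Ctrl-Treg library in 41.0% of all tested genes and 29.7% of genes with any value above 0. These shares are for the separation alone, and the share that also had Ctrl-Treg replicate 1 lowest was not counted. Foxn1, a transcription factor needed for hair shaft differentiation, was at 3.11, 4.21 and 5.03 FPKM in Ctrl-Treg, against 3.92, 4.22 and 3.89 in Lenv-Treg (-0.01 on the log2 scale, SE 0.14, limma adjusted p = 0.946). After median-ratio scaling its difference was 0.16 and after rescaling to TPM -0.27, and it passed in neither. Ovol1 (0.83) and Prdm1 (0.51) rose, the latter not after rescaling to TPM (0.30, limma adjusted p = 0.0972). Vdr (-2.26) and Ctnnb1 (-0.66), high in mean FPKM in this list, fell.

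Genes between the KAP genes in the genome, some of which share sequence with members, were also low in Lenv-Treg. In RefSeq on GRCm38.p6, members lie on chromosomes 11 (23 genes), 16 (24), 7 (5), 10 (3) and 1 (1). Between the first and last member of each run lay 83 other genes, of which 72 are in the table and 43 had a value above 0. Of 25 that were tested, 25 fell and 0 rose (-4.40 to -0.77), with the same limit of the filter. Gm10229 on chromosome 16 was the most abundant, at 9.59, 24.9 and 36.1 FPKM in Ctrl-Treg, against 0, 0.0872 and 0 in Lenv-Treg. It shares 14.5% of the windows of 100 bases of Krtap6-1. Gm2696, Gm11562, Gm11559 and Gm11564, all tested, also shared windows with members. The genes between are therefore not shown to be unrelated to the family. By chromosome, the read ratio of the members was 235 on 11 (exact interval 191 to 294) and 957 on 16 (598 to 1643). Without Lenv-Treg replicate 2 it was 453 on 11 and rested on 1 Lenv-Treg read on 16.

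Reads may be shared between near-identical copies. In GENCODE M21 transcripts, 23 of the 56 members shared at least 1 window of 100 bases with another gene, and 9 shared over 20% of their windows. Krtap3-3 shared 36.7% with Krtap3-2, Krtap10-10 38.9% with Gm2696 and Krtap2-4 29.5% with Gm11562. The other 33 members, 19 of them tested, shared no window. Those 19 fell, as every tested member did, with the limit of the filter given above, so their count does not bear on shared reads. How the authors treated reads with several matches is not stated in the labels.

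Markers of other cell types moved between the groups as well. Of 5 neutrophil genes 5 rose, with summed FPKM of 48.3 to 191 in Ctrl-Treg, against 38071 to 53758 in Lenv-Treg. Nearly all of the Lenv-Treg sum was S100a8 and S100a9, with means of 21891 and 24392 FPKM, against 46.9 and 56.3 in Ctrl-Treg. Retnlg had means of 1.89 FPKM in Ctrl-Treg and 256 in Lenv-Treg, and Csf3r of 2.95 and 19.6. The sum is therefore not a measure of the neutrophil genes as a set. Of 5 melanocyte genes 5 fell (summed FPKM 112 to 180 and 7.84 to 10.9), and of 5 dermal papilla genes 5 fell (25.2 to 36.0 and 1.53 to 3.31). Of 5 genes of follicle stem cells and the outer root sheath 5 fell (421 to 468 and 77.0 to 106). The libraries had the keratinocyte and fibroblast genes of skin: of 6 epidermal keratinocyte genes 3 rose and 2 fell (summed FPKM 3024 to 4752 and 7239 to 9130), and of 5 fibroblast genes 3 fell. Of 5 sebocyte genes 3 fell and of 3 adipocyte genes 2 fell, and 4 skeletal muscle genes were at 2058 to 6947 and 1984 to 2631 summed FPKM with none past the threshold. The part of these shifts in cell type markers in the KAP difference was not tested.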

How the data were processed

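Lesional mouse skin was profiled by RNA-seq in 6 libraries, grouped by treatment label. The values are FPKM as deposited by the authors, and the build is GRCm39 per the submitters' processing notes. The tools for alignment and counting were not given in the sources used here. All 6 columns matched a sample title.

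Low FPKM values of a gene are whole multiples of 1 step. Depth was set from 346 of 5084 low genes of known reference length. Allowing 0.001 reads, plus 1e-07 for each read, 13912 of 13945 tested genes gave whole reads, and 51 of the 52 members with reads had the RefSeq gene length. At these depths 1 read on 1 kb was worth 0.0248 to 0.0258 FPKM. Intervals are 95% exact binomial (Clopper-Pearson) and, like floors of 3 reads over a group, cover counting error only.

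Genes reaching 0.5 FPKM in 3 or more of 6 samples were tested by limma 3.58.1 (R 4.3.3; eBayes with a trend) on log2(FPKM + 1), a scale that understates changes of low genes, with Benjamini-Hochberg adjustment over all tested genes, two-sided. Differences are Lenv-Treg minus Ctrl-Treg. The script was tested on simulated data. The members and gene lists were chosen with earlier results of these data known. Protein classes follow the subfamily number from general knowledge, and were not computed from protein sequences as planned.

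Members named with values were the 5 highest in mean FPKM, the highest tested member of each subfamily and any tested member that did not fall. Also named were the 3 tested members with the largest difference, the 3 with the smallest and the 3 highest outside the filter. From each other list, up to 4 genes were named by mean FPKM. Further genes, chosen after their values were seen, are marked and come on top of these. Alternatives covered the pseudocount, filter, scaling, variance model, replicate block, voom on recovered reads, threshold and leaving out each library.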

Additional observations from a re-analysis of the deposited data

How the results depend on the processing

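All 33 tested KAP genes kept a negative difference under the 18 alternatives in which they were tested, and 32 of them kept their call throughout. Counts of KAP genes lower were 32 to 33 without single libraries, 33 with voom on recovered reads and 35 of 52 with no filter on low values, where Krtap27-1, Krtap29-1 and Krtap5-3 passed and Krtap6-1 did not. None was higher under any alternative. Krtap6-1 also missed a threshold of 0.01. Scaling moved the background: 4289 of 13945 genes were lower and 1532 higher as deposited, 2417 and 2417 after median-ratio scaling (median of all genes 0.00 against -0.17), 2304 and 2232 after quantile normalization, and 7970 and 947 after rescaling to TPM (median -0.44). The median of the tested KAP genes was -2.73, -2.64 and -3.77 under these 3 scalings. With no filter, 4099 of 25667 genes passed lower. All genes lower fell to 2780 without Lenv-Treg replicate 2, and at a threshold of 0.01 there were 2246 lower and 925 higher. With the replicate number as a block, 33 KAP genes were lower. The numbers are not shown to pair the samples. Same-numbered libraries' deviations from their group means correlated at 0.20, -0.01 and 0.33. Those of differently numbered libraries correlated at -0.28 to 0.08, so whether the numbers pair the samples is not settled. Depth limits the Lenv-Treg values, where most members rest on 0 to 3 reads, so single-gene ratios there have wide intervals. Without 1 library the KAP read ratio ran from 242 to 850 (345 with all 6), and it was 430 without Krtap17-1. The mean ratio of the KAP sum to the hair shaft keratin sum, Lenv-Treg minus Ctrl-Treg, was -0.584 and turned to 0.362 without Krt83 and Krt84. In Lenv-Treg replicate 3 that ratio was below every control library either way. These ratios were added after the data were seen.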
